A study of Mus musculus with 2 samples.

Results

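DNA repair genes were taken from a table of RNA-seq values for mouse embryonic stem (ES) cells by matching gene symbols to a list of repair and checkpoint families. The pattern covered, among others, the Rad, Xrcc, Fanc, Msh and Ercc symbols, the genes of the damage kinases and the base excision enzymes. It matched 83 rows, and 82 remained after Rad21, a cohesin gene, was left out, of 14261 rows in all. The pattern itself uses no expression value, though it was proposed with earlier results of these data known.

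The culture with doxycycline (dox) is set against the culture without it, 1 library each. Both were cells labelled TRE-ESC, kept in suspension in low-adsorption dishes for a time labelled 36 h, in N2B27 medium with LIF, a cytokine, and the kinase inhibitors called 2i. Dox is a drug widely used to switch on transgenes placed behind a tetracycline-responsive promoter. The study set out to follow how c-Jun, a transcription factor subunit of AP-1, drives ES cells to differentiate. The driver of the transgene, the number of clones and the number of dishes behind each library were not stated in the labels used here. With 1 library per group there was no test, no spread between cultures and no p-value, and each difference describes these 2 libraries.

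Cells lose, break and mispair DNA bases at every division, and separate pathways deal with each kind of lesion. Base excision repair removes single damaged bases, nucleotide excision repair cuts out bulky lesions, mismatch repair corrects copying errors, and the Fanconi anaemia pathway unhooks crosslinks between strands. Breaks of both strands are rejoined directly by end joining or copied from the sister chromatid by homologous recombination, under the control of the kinases ATM and ATR. Mouse ES cells divide fast, spend much of their cycle in S phase and are known for high levels of repair factors and for reliance on homologous recombination.

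The deposited values are whole numbers on a normalized scale, with quartiles of 14, 62 and 184 in either library. Depth per library is therefore unknown, and no counting interval is given. The log2 ratio is that of the dox value plus 10 over the no dox value plus 10, which understates differences of low genes. A gene was read as measured where the larger of its values was at least 50, the floor, and was called higher or lower when its ratio reached 2-fold. As the check of the labels, Jun stood at 3821 with dox and 55 without. Of 10 ES cell markers, all were above the floor, and their summed level was 11261 with dox and 17590 without. Pou5f1, which encodes Oct4, stood at 3572 and 3230, and Nanog at 623 and 2508. The sum rests largely on Pou5f1 and on Dppa5a, at 3818 and 4342. Of the 10 markers, 9 had a log2 ratio below 0 and 1, Pou5f1, was above 0, with a median of −1.08. At least 2-fold lower were 6 (60%, against 5.49% of all genes at the floor). The 13 fibroblast markers summed to 215 with dox and 260 without, a sum that rests mostly on Fbln1 at 133 and 227. The other 12, all under the floor, summed to 82 with dox and 33 without, with Col3a1 at 39 and 2 and with Dcn, Lum, Fap and Col6a2 at 0 in both. Among these, Pdgfrb, at 2 and 6, and Postn, at 8 and 11, were lower with dox. The 5 macrophage and blood markers among the rows summed to 229 with dox and 28 without. Csf1r stood at 111 and 1, Cd68 at 96 and 19 and Ptprc at 19 and 0. Itgam was lower with dox, at 3 and 8, and Lyz2 was at 0 in both. What part these marker shifts have in the repair gene values was not tested.

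Expression of repair genes was shifted down with dox. Of the 82, 62 reached the floor, among them 12 at least 2-fold lower and none (0) at least 2-fold higher. That is 19.4% lower, against 5.49% of all 8547 genes at the floor, and 0 higher, against 9.23% of all genes. The median log2 ratio was −0.51 over the 62 genes and −0.08 over all genes, and 55 of the 62 were below 0, against 54.9% of all genes. At a ratio of 1.5-fold, 26 genes were lower (41.9%, against 17.7% of all genes) and 2 were higher (3.23%, against 16.7%). In bulk RNA, fewer cells of a type and less RNA per cell cannot be told apart. The 12 lower genes were Apex1, Brca2, Ung, Chek2, Chek1, Exo1, Msh6, Fanci, Fancd2, Pms2, Msh3 and Fancm. With a pseudocount of 50 in place of 10 only 4 passed 2-fold, Apex1, Brca2, Ung and Msh6, which is 6.45%, against 2.00% of all genes at that setting. With the median of all genes set to 0 those 4 passed with Chek1, Chek2 and Exo1, which is 11.3%, against 4.36%.

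**Figure D1:**
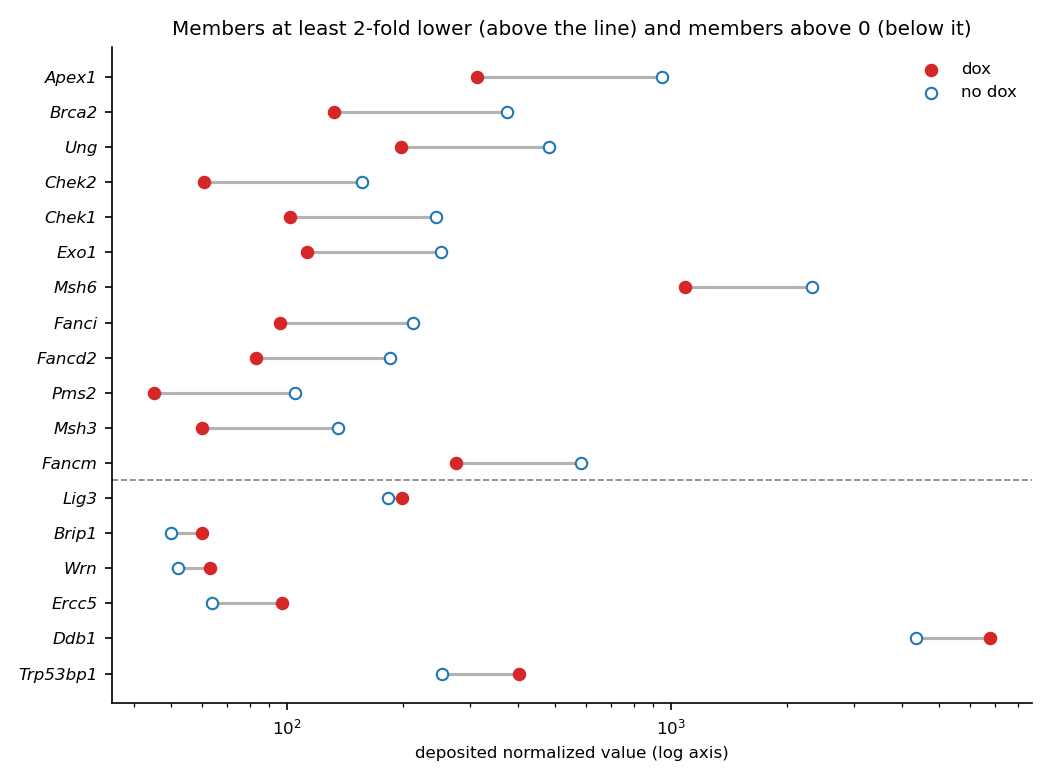
Deposited normalized values with dox (filled red) and without dox (open blue), on a log axis, 1 library each. The 12 genes above the dashed line were at least 2-fold lower with dox, from Apex1 at 313 and 948 down the plot to Fancm at 276 and 584; the genes below it are all measured repair genes with a log2 ratio above 0, from Lig3 to Trp53bp1.

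Promoter sequence is shown for 3 lower genes that hold an E2F-type motif, picked by both the call and the motif. E2F factors are known regulators of S phase genes, and replication genes are described further on. What part E2F factors have in the repair gene values was not tested. RefSeq windows on GRCm38.p6, from 250 bases before to 50 after the start of each gene, were found for 47 of the 62 measured genes and 10 of the 12 lower ones. The letters TTTCCCGC or TTTGGCGC were sought on both strands and stand in capitals. Brca2 lies in the window chr5:150522371-150522670 on the plus strand, Chek2 in chr5:110839733-110840032 plus and Msh6 in chr17:87974800-87975099 plus, and each is printed 5′ to 3′ along its gene.
Brca2: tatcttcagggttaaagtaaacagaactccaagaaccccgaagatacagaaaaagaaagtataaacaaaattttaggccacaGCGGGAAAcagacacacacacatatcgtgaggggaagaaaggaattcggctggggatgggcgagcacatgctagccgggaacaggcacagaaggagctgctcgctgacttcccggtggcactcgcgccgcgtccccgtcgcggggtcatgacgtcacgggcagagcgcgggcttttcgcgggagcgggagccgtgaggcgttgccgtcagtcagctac
Chek2: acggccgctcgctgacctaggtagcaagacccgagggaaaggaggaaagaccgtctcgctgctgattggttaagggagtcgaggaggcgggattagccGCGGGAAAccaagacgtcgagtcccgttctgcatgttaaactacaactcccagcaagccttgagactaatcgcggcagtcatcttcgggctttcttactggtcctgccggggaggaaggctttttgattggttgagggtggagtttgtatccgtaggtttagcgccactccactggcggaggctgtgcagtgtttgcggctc
Msh6: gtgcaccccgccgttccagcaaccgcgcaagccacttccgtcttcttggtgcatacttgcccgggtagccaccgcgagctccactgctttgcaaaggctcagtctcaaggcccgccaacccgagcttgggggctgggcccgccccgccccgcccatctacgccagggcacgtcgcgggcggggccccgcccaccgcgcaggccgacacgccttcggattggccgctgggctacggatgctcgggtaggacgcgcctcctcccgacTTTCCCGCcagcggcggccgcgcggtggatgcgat

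The E2F letters began 168 bases before the start in Brca2 and 152 before it in Chek2, and at base 16 after it in Msh6. They were present in 4 of the 10 lower genes, the fourth being Msh3, and in 4 of 37 genes within 2-fold, which were Bard1, Fancg, Mdc1 and Xrcc6. The share over measured repair genes was 17.0% (8 of 47), against 3.68% of 6693 genes at the floor, 1.63% of all 27025 first windows and 33.3% of 33 replication genes. The AP-1 letters TGANTCA stood in 0 of the 47 windows, against 4.32% of genes at the floor. The CRE letters TGACGTCA stood in 1 (2.13%), against 3.74% of genes at the floor. That window was the one of Brca2, with the letters 20 bases before the start. CCAAT, the NF-Y box, stood in 28 of 47 windows (59.6%), against 40.2% of genes at the floor and 66.7% of 33 replication genes. It stood in 5 of the 10 lower genes (50%) and in 23 of 37 within 2-fold (62.2%). Median GC content was 60.0% over the repair gene windows and 61.7% over genes at the floor. No motif contains another. A match is no evidence of binding, and a missing match says only that these letters are not in this window.

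Checkpoint effector kinases were lower by more than the kinases that activate them. Chek2, the kinase activated by ATM after double-strand breaks, stood at 61 with dox and 157 without, a log2 ratio of −1.23. Chek1, the kinase that ATR activates at stalled forks, stood at 102 and 245, a log2 ratio of −1.19. Atm itself stood at 167 and 209 and Atr at 162 and 216, log2 ratios of −0.31 and −0.39, within 2-fold. Chek2 lies on chromosome 5 from 110839979 to 110874145 on the plus strand, and Chek1 on chromosome 9 from 36708482 to 36727065 on the minus strand, in GRCm38. The sensor genes were within 2-fold and all below 0. In the trimer that binds broken ends, Mre11a stood at 126 with dox and 178 without, Rad50 at 114 and 188 and Nbn at 55 and 93. The clamp that recruits ATR signalling had near-equal log2 ratios in its subunits, with Rad9a at 67 and 122 (−0.78), Rad1 at 47 and 86 (−0.75) and Hus1, which the symbol pattern did not take, at 66 and 120 (−0.77). Rad17, which loads this clamp, stood at 96 and 101, and the chromatin mediator Mdc1 at 261 and 303. All 11 measured genes of break sensing and checkpoint signalling were below 0, against 54.9% of all genes, with a median of −0.66. At least 2-fold lower were 2 (18.2%, against 5.49% of all genes).

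With a pseudocount of 10, 3 of 10 measured genes of the Fanconi anaemia pathway were at least 2-fold lower (30%, against 5.49% of all genes). The pathway then had the lowest median of the pathways, −0.79. With a pseudocount of 50 it was −0.49, above homologous recombination at −0.59, mismatch repair at −0.55 and base excision repair at −0.54. Fancd2 and Fanci encode the pair that is ubiquitinated at a crosslink, and their log2 ratios were −1.07 and −1.07. Fancd2 stood at 83 with dox and 185 without, on chromosome 6 from 113531682 to 113597017, and Fanci at 96 and 213, on chromosome 7 from 79391929 to 79450264, both on the plus strand. Fancm, the translocase that anchors the core complex on DNA, stood at 276 and 584, a log2 ratio of −1.05, on chromosome 12 from 65075603 to 65132058 on the plus strand. Fancl, the ubiquitin ligase subunit, was just short of 2-fold at 44 and 93 (−0.93). Core complex genes spread over a wide range, with Fance at 45 and 85, Fancc at 37 and 71, Fancg at 44 and 63, Fancb at 66 and 84 and Fanca at 218 and 245. Brip1, the helicase partner of BRCA1 also called Fancj, was the one measured gene of the pathway above 0, at 60 and 50. Fancf was under the floor at 13 and 23.

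Homologous recombination genes had a median of −0.70, with 10 of 11 measured genes below 0, against 54.9% of all genes. At least 2-fold lower were 2 (18.2%, against 5.49% of all genes). Brca2, a tumour suppressor gene central to recombination, stood at 133 with dox and 375 without, a log2 ratio of −1.43, on chromosome 5 from 150522630 to 150570329 on the plus strand. Exo1, the nuclease that resects ends and also serves mismatch repair, stood at 113 and 252 (−1.09), on chromosome 1 from 175880581 to 175913489 on the plus strand. Brca1 and Bard1, which form one ubiquitin ligase, had values of 255 and 480 and of 105 and 200, with log2 ratios of −0.89 and −0.87. The helicase gene Blm stood at 180 and 298, a log2 ratio of −0.70. The recombination accessory genes Rad51ap1, at 70 and 106, Rad54l, at 144 and 209, and Rad54b, at 80 and 117, lay between −0.54 and −0.50. Xrcc3 stood at 52 and 54, and Wrn, a helicase gene, was above 0 at 63 and 52. The recombination genes Rad51b, Rad51c, Rad51d, Xrcc2 and Rad52 were under the floor, with values from 12 to 42 with dox and 18 to 49 without, each lower with dox.

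**Figure D2:**
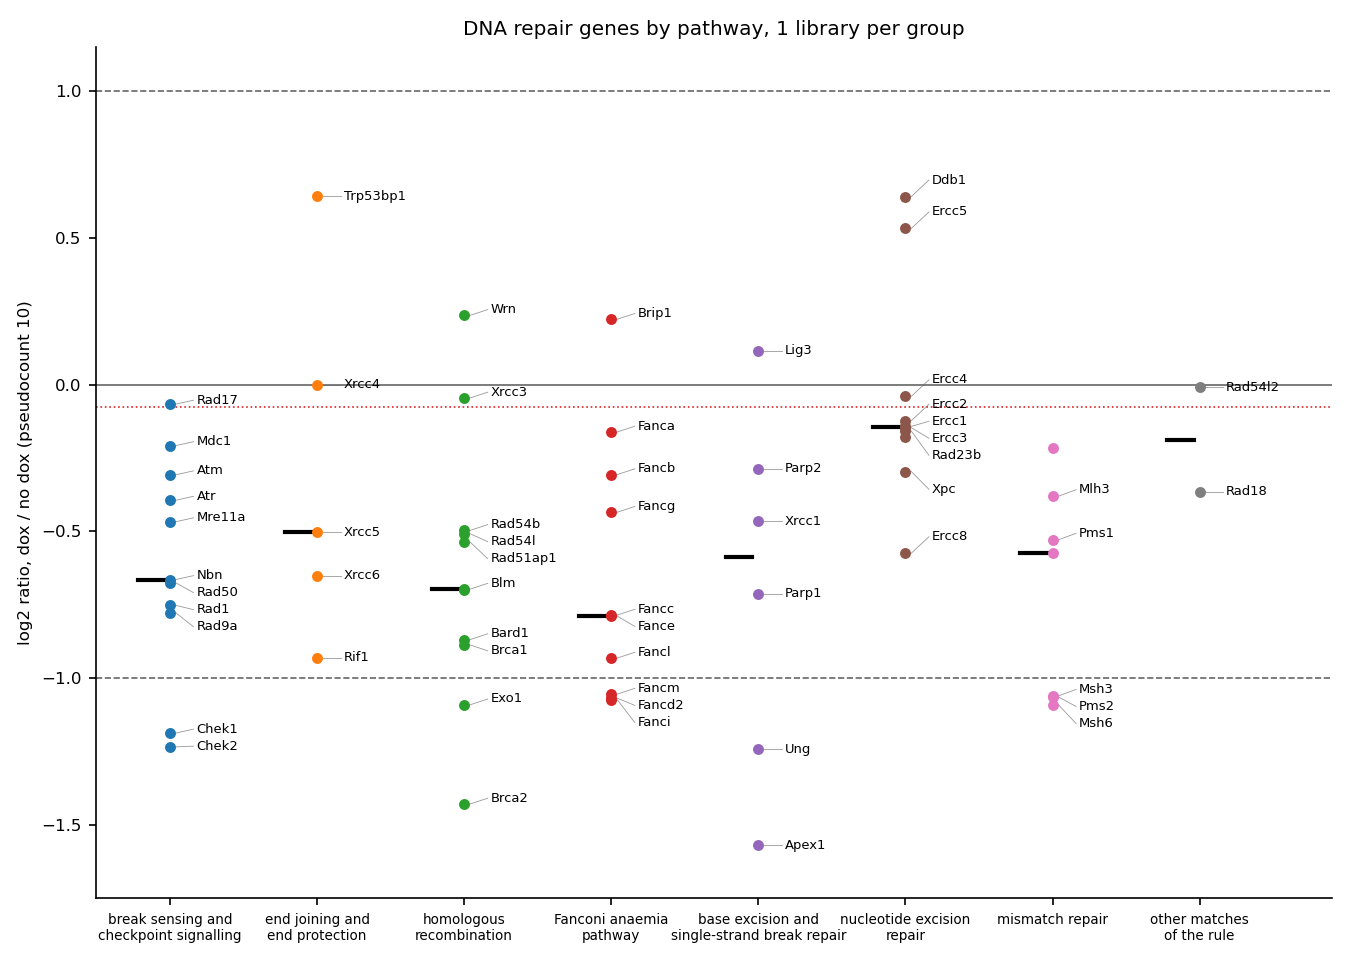
Log2 ratio of each measured repair gene, 1 point per gene (some without a name), by pathway, with the pathway median as a black bar. The dashed lines mark 2-fold, the solid line 0 and the dotted red line the median of all genes, −0.08; the medians run from −0.79 in the Fanconi anaemia pathway to −0.14 in nucleotide excision repair.

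Genes of end joining were split. None of the 5 measured genes was 2-fold lower or higher, against 5.49% lower and 9.23% higher over all genes. Over 5 genes that is near the background. The median was −0.50, beside −0.51 over all measured repair genes. The Ku genes Xrcc5 and Xrcc6, whose products cap broken ends, stood at 268 with dox and 384 without and at 125 and 202. The ligase complex had log2 ratios at or above 0, with Xrcc4 at 73 in both libraries and Lig4, under the floor, at 48 and 39. Trp53bp1, which shields ends from resection, stood at 402 and 254, a log2 ratio of 0.64. Rif1, which acts downstream of it at broken ends and also sets replication timing, stood at 781 and 1497 (−0.93). With the trend on transcript length removed the median was −0.32, and Rif1, at −1.12, was the 1 gene of this pathway past 2-fold. Taking in Lig4, with no floor, it was −0.25.

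Base excision repair held the lowest log2 ratio of the 62 genes, that of Apex1, which with the length trend removed was −1.21 and above that of Brca2, −1.66. Apex1, the endonuclease that cuts at sites without a base, stood at 313 with dox and 948 without, a log2 ratio of −1.57, on chromosome 14 from 50924968 to 50927139 on the plus strand. Of its exon bases 61.7% are shared with Pip4p1 on the opposite strand. The row named Tmem55b, an older symbol of that gene, stood at 159 and 147, and whether the counting used strand was not stated in the labels used here. Ung, the glycosylase that removes uracil, stood at 198 and 482 (−1.24), on chromosome 5 from 114130386 to 114139323 on the plus strand. The strand break sensor genes Parp1, at 1118 and 1838 (−0.71), and Parp2, at 117 and 145 (−0.29), were within 2-fold. The scaffold gene Xrcc1 stood at 182 and 255 and its ligase partner Lig3 at 199 and 183. The pathway's median was −0.59 over 6 measured genes. The other 6 were under the floor. They were the polymerase gene Polb at 29 and 32, the glycosylase genes Ogg1 at 29 and 41, Mutyh at 23 and 40, Neil1 at 10 and 25 and Neil3 at 21 and 23, and Parp3 at 11 and 7.

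Mismatch repair had all 7 measured genes below 0, against 54.9% of all genes, with a median of −0.57. At least 2-fold lower were 3 (42.9%, against 5.49% of all genes). Over the 4 genes of a floor of 100 the median was −1.06. Msh6, of the dimer that recognises single mispairs, stood at 1087 with dox and 2326 without (−1.09), on chromosome 17 from 87975062 to 87990892 on the plus strand. Msh3, of the dimer that recognises longer loops, stood at 60 and 136 (−1.06), on chromosome 13 from 92211872 to 92355003 on the minus strand. Pms2, which gives the pathway its nuclease activity, stood at 45 and 105 (−1.06), on chromosome 5 from 143909964 to 143933968 on the plus strand. Pms1, at 51 and 78, and Mlh3, at 53 and 72, were within 2-fold. Msh4, a meiotic gene, was listed at 8 in both libraries. With the median of all genes set to 0, the log2 ratios of Msh3 and Pms2 were −0.98 and −0.99, and Msh6 was past 2-fold.

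Nucleotide excision repair had the median nearest to that of all genes, −0.14, and 0 of its 10 measured genes passed 2-fold in either direction, against 5.49% lower and 9.23% higher over all genes, which over 10 genes is near that background. The median was −0.07 with that of all genes set to 0 and −0.01 with the length trend removed. The genes of the helicase subunits of TFIIH, Ercc2, at 170 with dox and 186 without, and Ercc3, at 158 and 176, had log2 ratios of −0.12 and −0.15. The incision nuclease genes Ercc1, at 96 and 107, and Ercc4, at 97 and 100, were as close, and the other nuclease gene, Ercc5, was above 0 at 97 and 64 (0.53). The lesion sensor gene Xpc stood at 69 and 87 and Rad23b, which stabilises its product, at 1645 and 1837. Ercc8, of the transcription-coupled branch, had the lowest log2 ratio of the pathway, −0.57, at 35 and 57. Ddb1, the adaptor of the CUL4 ubiquitin ligases, stood at 6781 and 4346 (0.64), and its lesion-binding partner Ddb2 was under the floor at 25 and 40. At this height the deposited scale has few steps. The dox value of Ddb1 lay in a set of 10 rows from 6778 to 6787, with 5344 as the next value down, and its no dox value in a set of 10 rows from 4341 to 4354. Xpa, at 24 and 12, and Ercc6, at 43 and 47, were under the floor.

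**Figure D3:**
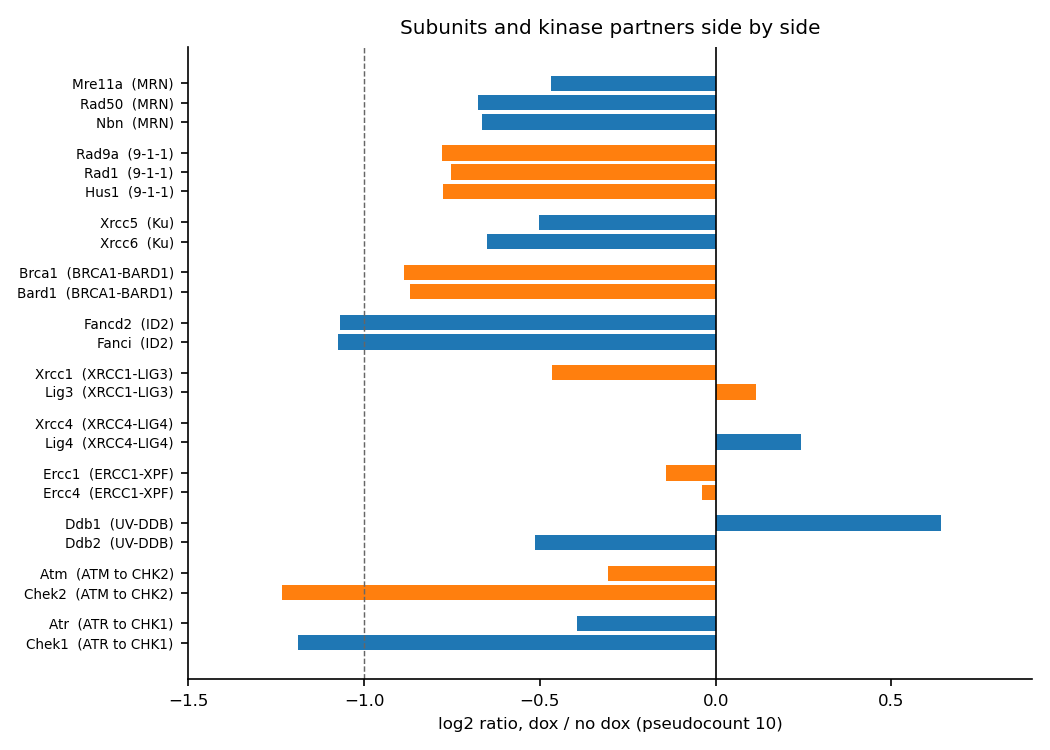
Log2 ratio of genes whose products act as a complex or as an activating and an activated kinase, grouped by complex; bars run from 0 and the dashed line marks 2-fold lower. Fancd2 with Fanci and Brca1 with Bard1 have near-equal bars, while Chek1 and Chek2 reach further than the kinases that activate them; Lig4 and Ddb2 are under the floor.

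The remaining matches were Rad18, a ubiquitin ligase gene of lesion bypass, at 87 with dox and 115 without, and Rad54l2, a chromatin remodeller gene named for its likeness to Rad54, at 288 and 290. Rad21l and Rad51ap2 were listed at 0 in both libraries. Over all 20 genes under the floor, values ran from 0 to 48 with dox and from 0 to 49 without.

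Genes of repair outside the symbol pattern gave medians of the same sign. Of 35 measured genes of double-strand break and fork repair, 2 were at least 2-fold lower and 0 higher, with a median of −0.44. These were Eme1, the regulatory subunit of a junction nuclease, at 44 with dox and 155 without, and the helicase gene Recql4, at 79 and 171. Of 26 measured genes of excision repair, direct reversal and lesion bypass, 3 were lower and 0 higher, with a median of −0.43. They included the flap endonuclease gene Fen1, at 184 and 383, and the glycosylase gene Nthl1, at 18 and 50. The share lower was 5.71% and 11.5% in these lists, against 5.49% of all genes.

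Replication and mitosis genes had medians close to that of the repair genes, with few past 2-fold. All 43 replication and S phase genes were measured, and 41 were below 0 (95.3%, against 54.9% of all genes), with a median of −0.54. At least 2-fold lower were 4 (9.30%, against 5.49% of all genes), and 0 were higher. The 4 were Mcm7 of the replicative helicase, at 921 with dox and 2056 without, Cdc6, at 102 and 261, Pold2, at 103 and 242, and the primase gene Prim1, at 88 and 207. Of 23 mitosis genes 22 were below 0, with a median of −0.53, and 1 was at least 2-fold lower (4.35%), the kinase gene Aurka at 189 and 393. What part a shift in the cell cycle has in the repair gene values was not tested. The list of p53 target genes had a median of 0.39, or 0.25 with a pseudocount of 50 or with no floor, and 5 of 23 measured genes at least 2-fold higher (21.7%, against 9.23% of all genes) and 0 lower. Of the 5 higher genes, Perp stood at 600 with dox and 17 without, Plk2 at 437 and 188 and Ddit4 at 318 and 89. The kinase gene Plk3 stood at 301 and 34 and the damage-response gene Gadd45a at 181 and 20. The arrest gene Cdkn1a stood at 874 and 735, the death gene Bax at 477 and 696, and Trp53 itself at 541 and 1023.

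**Figure D4:**
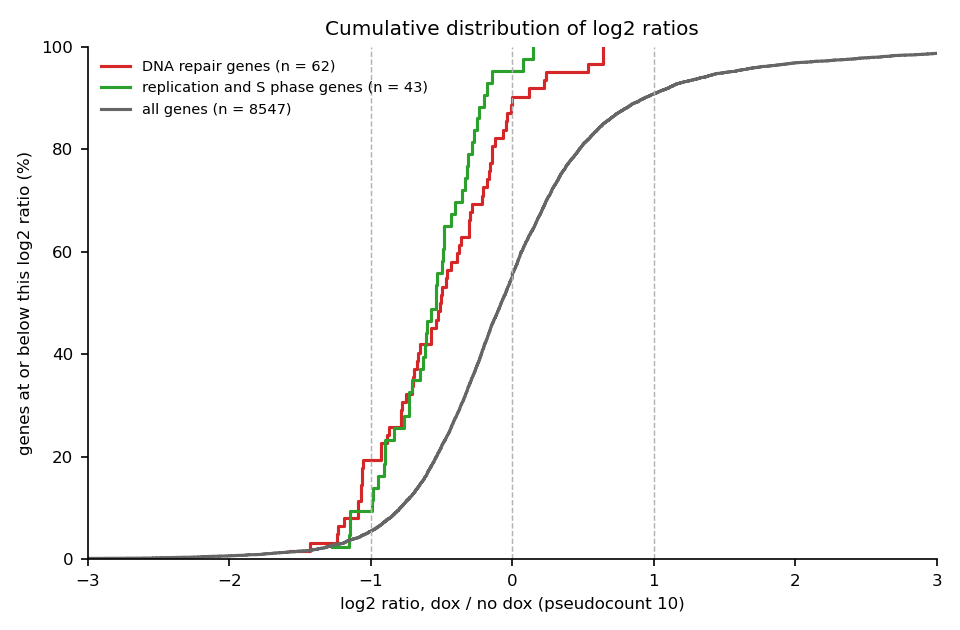
Cumulative share of genes by log2 ratio for 62 repair genes (red), 43 replication and S phase genes (green) and all 8547 genes at the floor (grey). Over most of their range the red and green curves lie left of the grey one, with medians of −0.51 and −0.54 against −0.08, and neither reaches 1 on the log2 scale; the axis is limited to 3 on either side. In the lower tail the grey curve is leftmost, as it runs past the lowest repair gene, at −1.57, and the lowest replication gene, at −1.27.

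The 12 lower genes were spread over 9 chromosomes, and the 82 over 19. Transcript length showed little relation to the values of the repair genes, with a Spearman rho of 0.04 between log2 ratio and the longest transcript over the 62 genes, which share both libraries, against 0.27 over 8472 genes. The median longest transcript was 3842 nt over the repair genes and 3566 nt over all genes. Many repair genes start beside a second gene on the opposite strand. Within 1000 bases, 21 measured repair genes had such a measured protein-coding neighbour, and 0 of the 21 neighbours passed 2-fold, against 5.49% lower and 9.23% higher over all genes. Of the neighbours 15 were below 0, against 54.9% of all genes, in 13 cases together with the repair gene. Their median log2 ratio was −0.24, and that of the 21 repair genes was −0.47. Brca1 and Nbr1, an autophagy receptor gene, start 194 bases apart, and Nbr1 stood at 468 with dox and 451 without (0.05). Fancd2 and Emc3 start 30 bases apart, and Emc3 stood at 107 and 128 (−0.24).

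Exons shared with a neighbour limit some values. Among the 12 lower genes this share was highest in Apex1, at 61.7%, followed by Fanci, with 15.95% shared with Polg on the opposite strand, itself at 218 with dox and 237 without. The share was 7.07% or less in the other 10. Of the genes above 0, Lig3 shares 25.1% with Rffl and Trp53bp1 15.0% with Tubgcp4, which stood at 94 and 70. Aligned at 95% identity or more over at least 300 nt, the longest transcript of each gene matched other genes that overlap it, and none elsewhere.

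**Figure D5:**
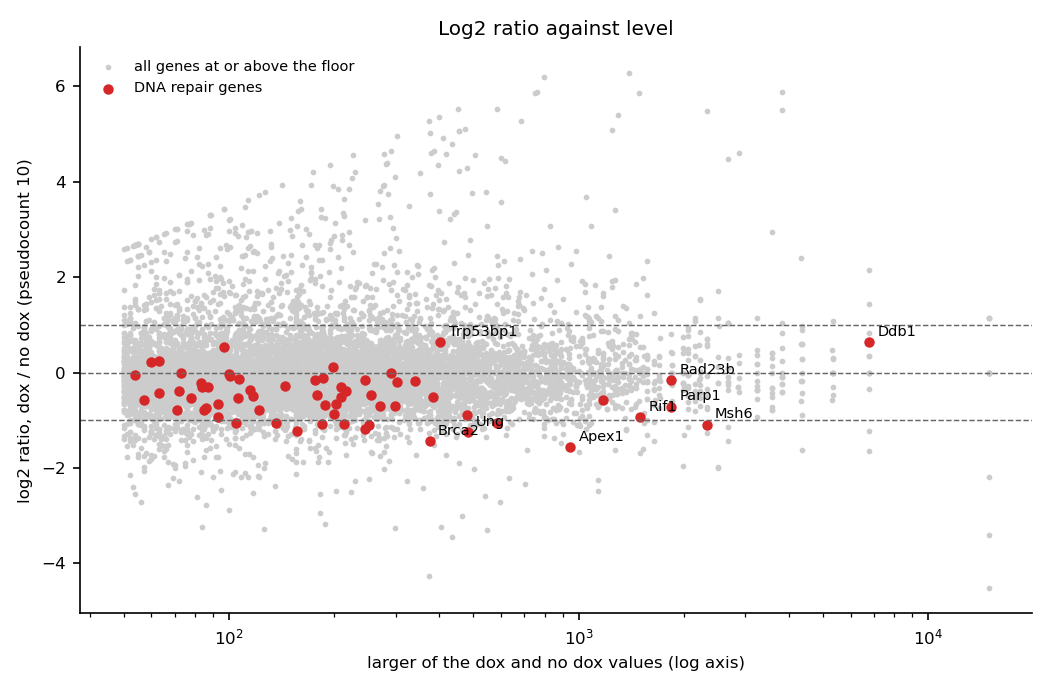
Log2 ratio against the larger of both values (log axis) for repair genes (red) among all genes at the floor (grey), with dashed lines at 0 and at 2-fold. The lower repair genes lie across the range of levels, from Pms2 at 105 to Msh6 at 2326 without dox; the columns of grey points at the right are the steps of the deposited scale.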

How the data were processed

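TRIzol RNA of both cultures was made into TruSeq RNA libraries, read on a NextSeq 500, per the labels' protocols. The authors used bcl2fastq, Bowtie2 and RSEM (build mm10), per the submitters' processing notes. Tool versions, the annotation, the normalization and any filters were not given in the sources used here. Each deposited value was handled as a score that the authors had normalized and rounded, because 75.5% of sorted positions held equal values in both libraries (tolerance 0). No count model was used and 0 columns were left unused. Symbols turned into dates stood in 21 rows.

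Log2 ratios (pseudocount 10), the floor of 50 and the 2-fold call were applied to all rows. Genes named are all members past 2-fold, otherwise members of each pathway by both values, and up to 4 genes per other list, with more for the p53 targets. Neighbours, Hus1, Trp53 and Tmem55b were named after their values were seen. The members, lists and tests were chosen with earlier results of these data known. The 5 other gene lists were matched by symbol. Some genes that the rule takes enter the counts and medians and are not reported here by name.

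Coordinates, exons and lengths came from GENCODE M21 on GRCm38, the assembly of mm10, and all 82 symbols matched. Lengths were available for 99.1% of genes at the floor, and the length trend was fitted with lowess (fraction 0.3). Promoters came from RefSeq (GRCm38.p6), the first window listed per gene. Transcripts were aligned with BLAST 2.17.0. Python 3.11.15 was used with statsmodels 0.14.6, pandas 2.3.3, numpy 2.4.6 and matplotlib 3.10.9. How often the 2-fold calls err in these libraries was not tested.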

Additional observations from a re-analysis of the deposited data

How the results depend on the processing

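With 1 library per group no alternative has a test, so a count was read as moved beyond 1.5 times and a median by a change of sign or by more than 0.5 on the log2 scale. Under the alternatives run no list median did, the widest shift being that of mismatch repair to −1.06 with a floor of 100, and that of the repair genes was −0.46 with the length trend removed, when that of all genes was 0.01. A pseudocount of 1, no floor, a floor of 100 and the list without non-repair and meiotic matches moved no count of lower or higher genes beyond 1.5 times. With a pseudocount of 50, 4 repair genes were at least 2-fold lower (6.45%, against 2.00% of all genes), with 0 in checkpoint signalling, 1 in homologous recombination, 0 in the Fanconi anaemia pathway and 1 in mismatch repair. The other break repair, other excision repair, replication and mitosis lists then had 1, 0, 2 and 0. With the median of all genes set to 0, 7 repair genes were lower (11.3%, against 4.36%), with 0 in the Fanconi anaemia pathway and 1 in mismatch repair, and the other break repair, other excision repair and mitosis lists had 1, 1 and 0. With the length trend removed, 14 repair genes were lower (22.6%, against 4.06%), with 1 in end joining, and the same 3 lists had 1, 0 and 0. At a threshold of 1.5-fold 26 were lower and 2 higher, and at 3-fold 0 were lower, against 1.39% of all genes. Over any listed promoter window, a choice made after seeing the data, the motif counts did not move. The causes of these shifts were not tested. Since depth is unknown, the counting error of low values could not be estimated. No paired analysis was possible because there was 1 library per group.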
